A study of Mus musculus with 2 samples.

Results

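The ADAM and ADAMTS genes encode 2 related families of zinc metalloproteases, and the peaks assigned to them are described here as a map of Dnmt1 contact in cleavage-stage mouse embryos. Members were the deposited peaks whose assigned gene name begins with Adam, Adamts or Adamtsl and a number, or is Adamdec1. They were 39 of 8226 peaks, at 19 genes: 10 peaks at 9 Adam genes and 29 peaks at 10 Adamts genes, of which 10 belonged to Adamts16. The peaks come from DamID, in which a chromatin protein is fused to Dam, a bacterial enzyme that methylates adenine in GATC, so that marked GATC sites record where the fusion has been. Embryos were injected with a Dnmt1-V5-Dam construct (Dnmt1 is the maintenance DNA methyltransferase, and V5 an epitope tag) or with Dam alone, which marks accessible DNA. Both groups were BCF1 (C57BL/6 x CBA/CA) embryos of females 5 weeks of age that had received 5 IU of pregnant mare serum gonadotrophin and 5 IU of human chorionic gonadotropin 48 h apart. They were cultured in M16 medium and pooled as 50 embryos per group at the 4- to 8-cell stage. No deletion of the embryos' own Dnmt1 is named in the labels, and the form in which the constructs were injected is not given in the sources used here.

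Each group was 1 library, so a difference between the libraries has no replicate check and no p-value was computed. For each peak the deposited table gives 1 position, in mm9 coordinates, and 1 height per library. The depth is unknown, as no source used here gives total reads. The list holds only positions where the fusion exceeded Dam alone by 6 or more and by a factor of 2 or more, and its smallest Dnmt1-Dam height was 7. The members were thus chosen by the 2 heights as well as by gene name, and their heights are given as a description. Of the 39 peaks, 15 (38.5%) lay at the smallest height of 7, against 26.8% of all peaks. Positions just below that limit are not in the list.

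ADAM proteins sit in the cell membrane and carry a metalloprotease and a disintegrin domain. Some of them cut growth factors, cytokines and receptors from the cell surface, others have lost the catalytic site and act in adhesion, and a large rodent group serves sperm maturation and fertilization. ADAMTS proteins are secreted, carry thrombospondin repeats and cut matrix molecules such as proteoglycans and procollagens. ADAMTS-like proteins share those repeats but lack the protease domain.

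The RefSeq gene table holds 59 genes of the families, 35 named Adam (with Adamdec1), 19 Adamts and 5 Adamtsl. Matching by transcript accession rather than by name added 6 peaks at 2 genes to the 39, so that 21 of the 59 (35.6%, exact Clopper-Pearson 95% interval 23.6 to 49.1) had at least 1 assigned peak. The same share over 21035 genes with a curated messenger RNA was 22.7%. A peak inside the gene body was found for 12 of the 59 (20.3%, 11.0 to 32.8), against 11.7% of all genes, and 13 had one in the body or within 10 kb, against 14.7% of all genes. By subfamily, 10 of 19 Adamts genes (52.6%, 28.9 to 75.6), 10 of 35 Adam genes (28.6%, 14.6 to 46.3) and 1 of 5 Adamtsl genes had a peak, and the intervals of Adam and Adamts overlap. All of these intervals cover counting error only, and genes were not matched on length.

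None of the 39 peaks lay in a promoter class (start sites with 10 kb before and 1 kb after them). This allows a share of up to 7.69% at a limit of 3 counts, or 9.03% by the exact interval. Among all 8226 peaks the share was 6.73%. The Adam6b peak, matched by accession and so not among the 39, lay in the proximal promoter class. The promoter windows of the families were also searched for GATC, the motif that Dam marks, which reads the same on both strands. They are RefSeq sequences of assembly GRCm38.p6 from 250 bases before to 50 bases after the start site. These windows cover only a small part of the promoter class, and a link between their GATC content and the peaks was not tested. In all, 32 of the 59 genes matched, with 34 windows, and 15 windows (44.1%) held a GATC, against 48.0% of 32851 windows of all genes. Only 11 of the 21 family genes with a peak had a window, and Adamts16, Adamts5 and Adamts15 had none. Adam19 was the only gene with several windows. The median number of CpG dinucleotides was 3 in the 20 Adam windows, 23.5 in the 10 Adamts windows and 7 in all windows. The 3 sequences below were chosen after their contents were seen, to show this range at genes that have a peak: Adamts14 with 3 GATC and 44 CpG, Adamts20 with 0 GATC and 41 CpG, and Adam6b with 0 of either. Capitals mark GATC, and each runs 5′ to 3′ on the strand of its gene. They lie at chr10:61273370-61273669 (minus strand), chr15:94404301-94404600 (minus strand) and chr12:113489315-113489614 (plus strand) of GRCm38.p6, which are not the mm9 coordinates used for the peaks.
Adamts14: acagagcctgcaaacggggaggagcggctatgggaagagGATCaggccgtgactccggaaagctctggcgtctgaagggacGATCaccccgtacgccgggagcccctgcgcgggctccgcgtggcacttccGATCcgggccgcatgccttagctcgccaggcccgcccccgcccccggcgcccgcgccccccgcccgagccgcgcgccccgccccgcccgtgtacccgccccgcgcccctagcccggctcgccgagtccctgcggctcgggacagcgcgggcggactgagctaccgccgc
Adamts20: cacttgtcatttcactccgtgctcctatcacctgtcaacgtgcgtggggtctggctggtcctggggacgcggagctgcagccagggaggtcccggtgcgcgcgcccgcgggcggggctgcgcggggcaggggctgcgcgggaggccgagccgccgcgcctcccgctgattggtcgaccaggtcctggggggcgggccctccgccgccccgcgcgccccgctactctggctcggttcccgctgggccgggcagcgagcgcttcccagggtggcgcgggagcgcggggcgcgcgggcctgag
Adam6b: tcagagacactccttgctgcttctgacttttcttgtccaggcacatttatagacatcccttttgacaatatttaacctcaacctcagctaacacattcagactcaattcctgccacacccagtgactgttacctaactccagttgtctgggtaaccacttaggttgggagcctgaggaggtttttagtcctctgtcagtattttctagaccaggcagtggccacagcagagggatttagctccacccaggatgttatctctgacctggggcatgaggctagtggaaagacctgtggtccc

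The Dnmt1-Dam height of the Adam peaks ran from 7 to 14 with a median of 8.5, and that of the Adamts peaks from 7 to 15 with a median of 9, against a median of 9 for all peaks. The 2 subfamilies overlap over nearly the whole of these ranges. A height of 9 or more was reached by 20 members (51.3%), against 52.9% of all peaks. A height of 15 was reached by 1 member, at Adamts5, where 8.66% of all peaks have 15 or more. No member reached 20, where 2.63% of all peaks lie. The Dnmt1-Dam height was at least 10 times the Dam-only height at 11 members (28.2%), against 23.4% of all peaks.

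**Figure D1:**
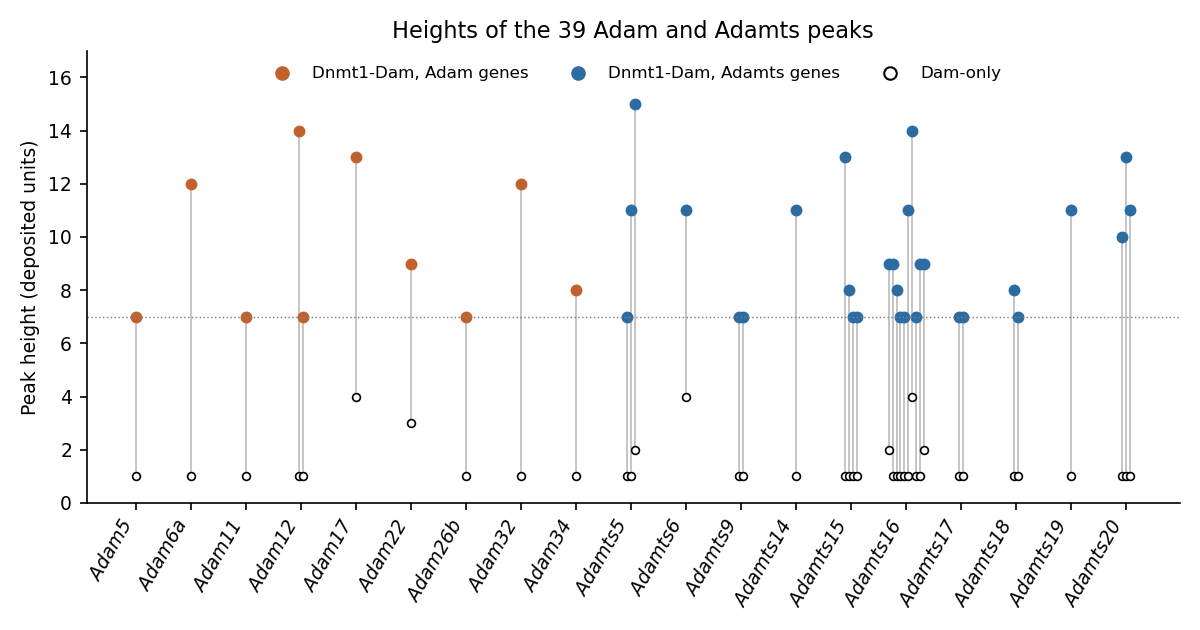
Height of each of the 39 peaks in the Dnmt1-Dam library (filled points) and the Dam-only library (open points), in the units of the deposited table, by assigned gene. Each grey line joins the 2 values of 1 peak, the dotted line is the smallest listed Dnmt1-Dam height of 7, and no Dnmt1-Dam point lies above 15.

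Among the Adam genes, the sheddases, which release ligands from the membrane, had a peak at 2 of 9 genes. Adam12, a protease of muscle and placenta that sheds heparin-binding EGF, held both of its peaks inside its 342 kb body on chromosome 7 (141074883 to 141416780). The higher, at 141140941, reached 14 in the Dnmt1-Dam library against 1 for Dam-only, lay in a LINE 276 kb downstream of the start site, and was the highest Adam peak. The other, at 141365361, reached 7 against 1 in the shelf of a CpG island, at 51.4 kb. Adam17, the protease that releases tumor necrosis factor, had 1 peak of 13 against 4 inside its body on chromosome 12 (21331591), 47.9 kb from its start site and outside any named repeat. Adam10, the main Notch sheddase, had none.

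The neural ADAM receptors, which lack protease activity and bind LGI proteins at synapses, had a peak at 2 of 3 genes. Adam22 held 1 of 9 against 3 inside its 296 kb body (chromosome 5, 8121131), 247 kb from the start site. Adam11 held 1 of 7 against 1, at -29.3 kb (chromosome 11, 102593501; negative distances are upstream). Neither lay in a named repeat.

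The sperm and testis genes had a named peak at 5 of 21 members. Adam32 had 12 against 1 inside its body (chromosome 8, 26011491), in a SINE and in the shelf of a CpG island. Its neighbor Adam5 had 7 against 1 inside its body (25859831), in an LTR element. These are 2 of 5 family genes that adjoin on chromosome 8, and Adam18, Adam3 and Adam9 of the same run had no peak. A second run on that chromosome holds Adam26b, with 7 against 1 in a simple repeat 41.2 kb downstream of its start site (44572261), and Adam34, with 8 against 1 in an LTR element at -283 kb (45067721). Adam26a and Adam34l of that run had none, nor had any of the 4 genes of another run (Adam24, Adam25, Adam20 and Adam39). The peak assigned to Adam6a, named Adam6 in the file and located within the immunoglobulin heavy chain locus, reached 12 against 1 (chromosome 12, 115803091). It lay 1021 kb downstream of the start site, the longest distance of any member. LTR elements, LINE or SINE were named at 3 of the 5 peaks of these testis genes, against 35.0% of all peaks. With 5 peaks, this difference cannot be resolved.

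Among the Adamts genes, the proteoglycanases, which cut aggrecan and versican, had 12 peaks at 4 of 7 genes, and 0 of the 12 lay inside a gene body. The gene body class holds 42.5% of all peaks. The difference of the 12 from that share was not tested, and the 12 include a pair at Adamts5 that lie 120 bp apart. The fibrillin-related and other proteases had 16 peaks at 5 of 6 genes, and each of the 5 had at least 1 peak in its body, 6 in all (37.5%). Of these 16 peaks, 10 belonged to Adamts16. Their bodies ran from 114 to 313 kb, against 23.3 to 134 kb for the 4 proteoglycanases, and neither the difference between the 2 groups nor the part of length in it was tested.

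Adamts5, the main aggrecanase of mouse cartilage, carried the highest peak of all members, 15 against 2 in a LINE at -334 kb (chromosome 16, 86235541). A pair of its peaks 120 bp apart, at 85930581 (7 against 1) and 85930701 (11 against 1), lay 29.2 and 29.3 kb upstream of the start site. Adamts1, which adjoins Adamts5, had no peak. Adamts20, the gene mutated in belted mice, which lack pigment in a band of the trunk, had 3 peaks on chromosome 15. They reached 13 against 1 in a DNA transposon at -37.5 kb (94272181), 11 against 1 at -51.2 kb (94285871), and 10 against 1 at 258 kb (93976681), beyond the end of the gene. Adamts15 had 4 peaks on chromosome 9, all beyond the end of its 23.3 kb body. The highest, of 13 against 1, was the farthest at 232 kb from the start site (30497671), and the other 3, at 183, 146 and 65.6 kb, reached 8, 7 and 7 against 1. Of these 4, 2 lay in SINEs. Adamts9, a versican protease, had 2 peaks of 7 against 1 at -106 kb (in LINE sequence) and -453 kb.

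Adamts6, a protease of heart development, had 1 peak of 11 against 4 (chromosome 13, 105127821), 49.9 kb inside its body. Its height ratio of 2.75 was the smallest of all members. Adamts19 had 1 of 11 against 1 (chromosome 18, 59192251), 196 kb inside its body. Adamts17 had 2, both of 7 against 1, 1 in the body at 202 kb and 1 at -52.3 kb. Adamts18 had 8 against 1 in an LTR element inside its body, at 41.5 kb, and 7 against 1 at -19.9 kb, the smallest distance from a start site among the 39. Among the procollagen proteases, Adamts14 alone of 3 had a peak, of 11 against 1 (chromosome 10, 60688951), inside its body at a SINE and a simple repeat, in the shore of a CpG island. The von Willebrand factor protease gene Adamts13 and the 2 genes for proteases of the cartilage protein COMP, Adamts7 and Adamts12, had none.

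**Figure D2:**
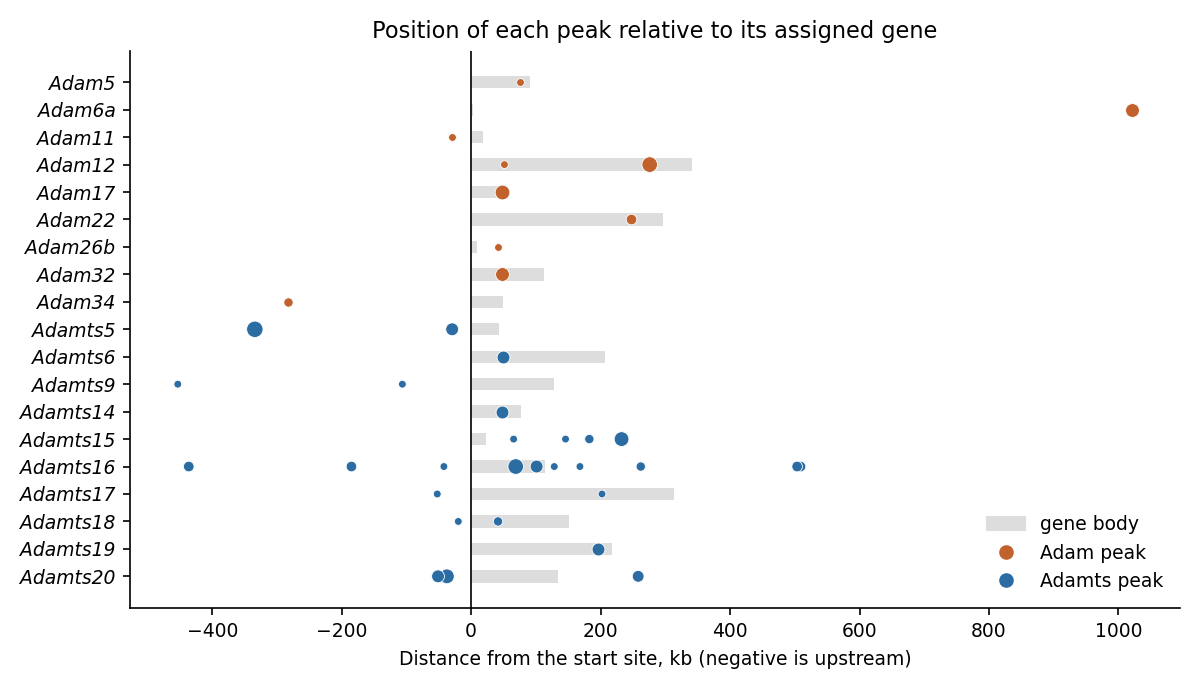
Distance of each peak from the start site of its assigned gene in kb, with grey bars for the gene bodies and larger points for higher Dnmt1-Dam heights (from 7 to 15). The peaks of Adamts5, Adamts9, Adamts15 and Adamts20 lie outside the grey bars, and the peak of Adam6a lies farthest away.

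Adamts16, a secreted protease gene studied in kidney and gonad, held 10 of the 29 Adamts peaks. Its 114 kb body lies on the minus strand of chromosome 13 (70866686 to 70980688). The 2 peaks inside it were the highest of the 10, with 14 against 4 at 70911801 and 11 against 1 at 70879561. They lay 68.9 kb and 101 kb past the transcription start. On the upstream side lay 3 peaks, of 7 against 1 at -42.1 kb (71022801), 9 against 1 at -185 kb (71165611) and 9 against 2 at -436 kb (71416961).

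Beyond the end of the gene lay 5. Nearest were 7 against 1 at 70852271 and 7 against 1 at 70812621, the latter in an LTR element. Farther out were 8 against 1 in a simple repeat at 70718681, then 9 against 1 at 70477071 and 9 against 2 at 70471881. These last lay 504 and 509 kb from the start site and 5.19 kb from each other.

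**Figure D3:**
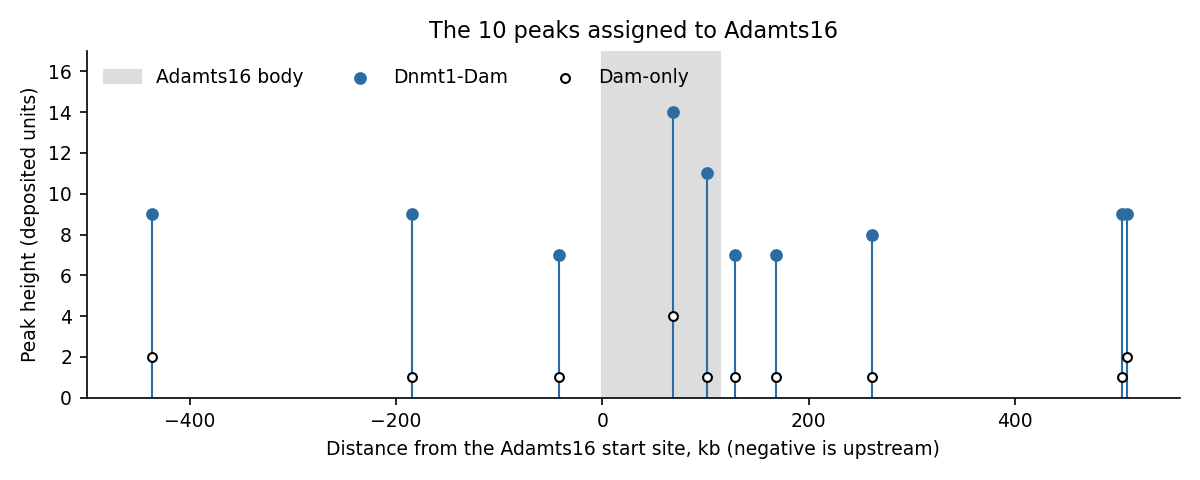
Heights of the 10 Adamts16 peaks in the Dnmt1-Dam library (filled points) and the Dam-only library (open points) against distance from the start site in kb, with the gene body in grey. The 2 peaks in the body reach 14 and 11, and the 8 outside it lie between 7 and 9.

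The heights of the Adamts16 peaks overlapped those of the other members: the median was 9 (range 7 to 14), against 8 (range 7 to 15) for the other 29 and 8 for the other Adamts peaks. A Dam-only height above 1 was found at 3 of the 10, at 4 of the other 29 members and at 24.2% of all peaks. A retroelement was named at 1 of the 10 Adamts16 peaks (10%, 0.253 to 44.5), against 6 of 19 other Adamts peaks (31.6%, 12.6 to 56.6) and 35.0% of all peaks. These intervals overlap. No repeat was named at 8 of the 10 (80%, 44.4 to 97.5), an interval that holds the 60.5% of all peaks. A CpG island context was given for 0 of the 10 (exact interval 0 to 30.8), an interval that holds the 6.61% of all peaks.

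The 10 peaks were spread over 945 kb, with gaps between neighbors of 5.19 to 251 kb (median 93.9 kb), and no peak of another gene lay between them. The density over that span was 10.6 per Mb (exact Poisson 95% interval 5.07 to 19.5), against 3.26 (2.95 to 3.60) for chromosome 13. The peaks themselves set this span, so the comparison is a description. A span of this length starting at a listed peak held 10 or more peaks at 260 of the 8226 peaks (3.16%), and at most 17. The nearest peaks of other genes lay 112 kb before the span, assigned to Med10, and 167 kb after it, assigned to the homeobox gene Irx1. In the RefSeq gene order, Ice1 lies between Med10 and Adamts16 and received no peak. No source used here says whether the annotation behind the file held Ice1, and some peaks on that side may have a nearer gene.

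Of 4821 genes with a peak, 4 had more than Adamts16. A count in a fixed window placed it lower. Within 500 kb of its start site lay 8 peaks of any gene, as many as around Adamts14 and Adamts15, and 12.8% of genes with a peak had that number or more. The median was 4 for the 9 Adam genes (range 2 to 5), 4 for the 10 Adamts genes (range 1 to 8) and 5 for all genes with a peak. Around Adamts16 all 8 were assigned to it, while 7 of the 8 around Adamts14 were assigned to other genes. The number of annotated genes in each window was not taken into account. Adamts6 had the fewest, 1.

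**Figure D4:**
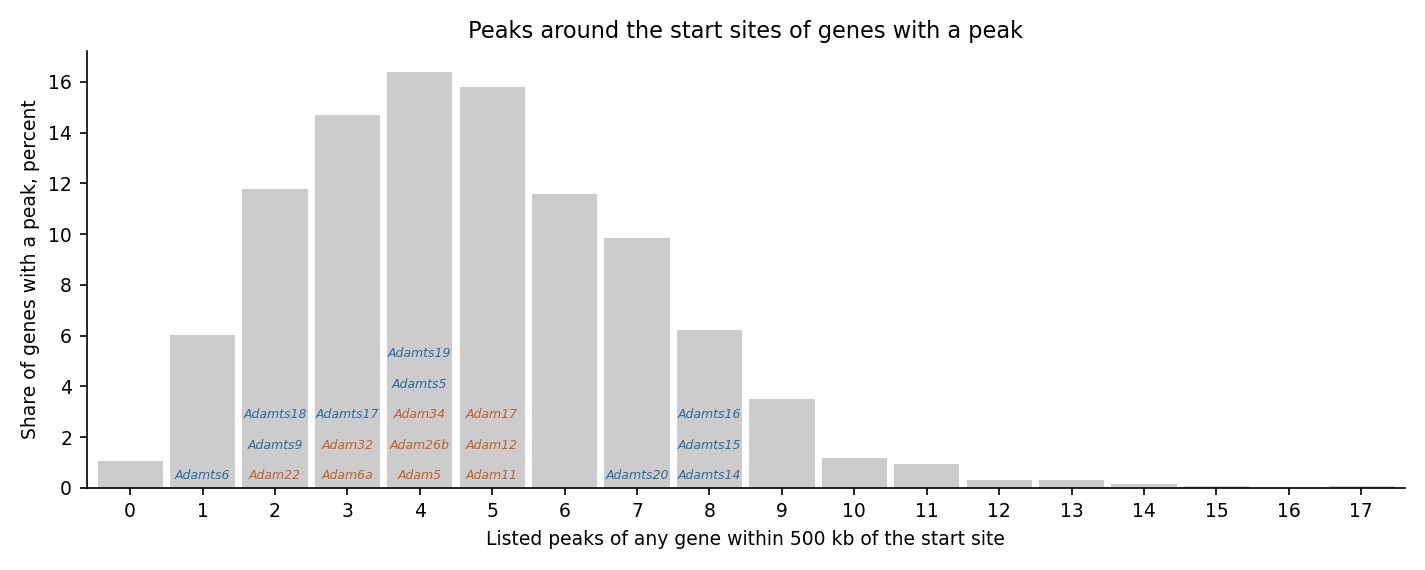
Number of listed peaks of any gene within 500 kb of the start site, for all 4821 genes with a peak (grey bars, percent of genes), with each member written at its own count (orange for Adam, blue for Adamts; the height of a name has no meaning). Adamts14, Adamts15 and Adamts16 stand at 8, and the Adam genes between 2 and 5.

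A single peak was assigned to 8 of the 9 Adam genes and to 3 of the 10 Adamts genes, against 63.1% of all genes with a peak. The difference between the subfamilies was not tested. Adamts5, Adamts15, Adamts16 and Adamts20 had 3 or more, which is 4 of 19 genes, against 16.3% of all genes with a peak. Among these 19 genes matched by name, 1, Adamts16, had 5 or more, against 3.94%. The shares of all genes were counted with matching by transcript accession. By that matching Adamtsl1, not among the 19, also had 5. The median body was 50.1 kb for these Adam and 131 kb for these Adamts genes, and its part in the number of peaks was not tested.

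The 9 Adam bodies held 6 peaks in 0.971 Mb, or 6.18 per Mb (2.27 to 13.5), and the 10 Adamts bodies 7 peaks in 1.41 Mb, or 4.98 per Mb (2.0 to 10.3), and these intervals overlap. The bodies of all genes with a peak held 7.30 per Mb (7.06 to 7.54). Genes entered these densities by having an assigned peak inside or outside the body, and 4 of the Adam and 4 of the Adamts genes had none inside it.

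The gene body class held 6 of 10 Adam peaks (60%, 26.2 to 87.8) and 7 of 29 Adamts peaks (24.1%, 10.3 to 43.5), against 42.5% of all peaks. The 2 intervals overlap, and so do those for peaks over 100 kb outside the body, with 2 of 10 Adam peaks (20%, 2.52 to 55.6), 12 of 29 Adamts peaks (41.4%, 23.5 to 61.1) and 23.1% of all peaks. The Adamtsl1 peaks described below, all inside its body, had no gene name in the file and are in none of these shares. The median distance to the start site was 63.2 kb for Adam, 128 kb for Adamts and 60.4 kb for all peaks. Without Adamts16 the Adamts median was 65.6 kb, so the difference from Adam rested on that gene. Retroelements were named at 4 of 10 Adam (40%, 12.2 to 73.8) and 7 of 29 Adamts peaks (24.1%, 10.3 to 43.5). Their interval limits hold the share of all peaks, 35.0%. A CpG island context was given for 3 of the 39 peaks, those of Adam12, Adam32 and Adamts14 above (7.69%), against 6.61% of all peaks.

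**Figure D5:**
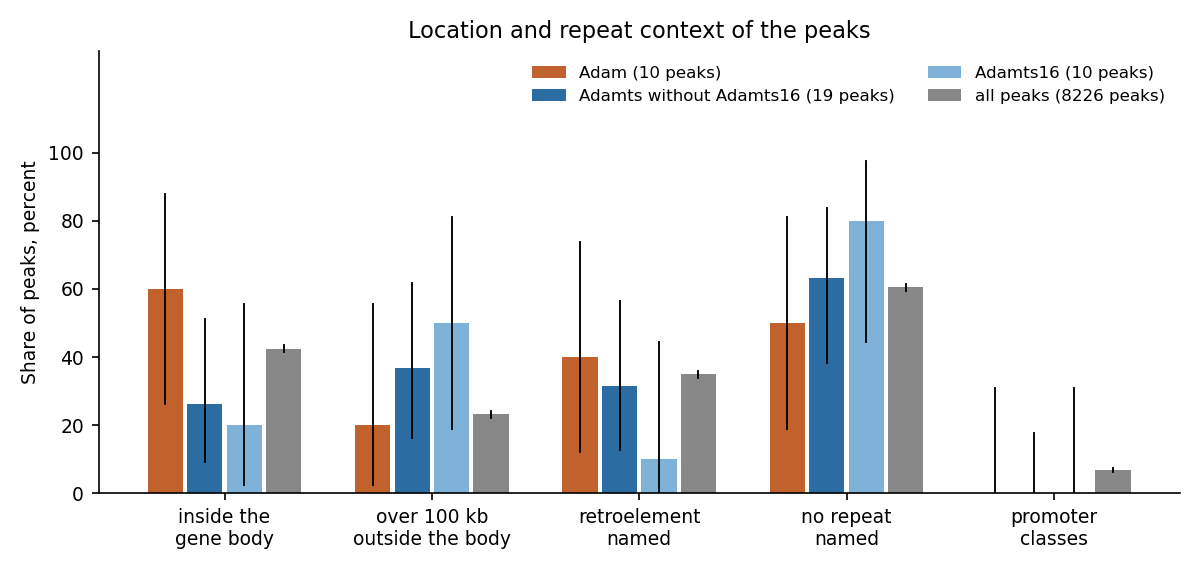
Share of peaks in percent by location and repeat context for Adam genes, Adamts genes other than Adamts16, Adamts16 and all peaks, with exact 95% intervals as black lines (counting error only). The gene body share is 60% for Adam, and the intervals of the 3 member groups overlap in every class.

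Dam-only signal above the list's minimum of 1 was found at 7 of the 39 members (17.9%, 7.54 to 33.5), against 24.2% of all peaks. The 4 of these with a Dam-only height of 3 or 4, at Adam17, Adam22, Adamts6 and Adamts16, all lay inside a gene body outside any named repeat. That is 4 of 13 member peaks inside a body (30.8%, 9.09 to 61.4) and 0 of 26 outside one (exact interval 0 to 13.2). Among all peaks, a Dam-only height of 3 or more was found at 11.8% inside bodies and 11.7% outside. With a Dam-only height of 2 or more, the counts were 4 of 13 inside and 3 of 26 outside (11.5%, 2.45 to 30.2). That height was found at 25.2% of all peaks inside bodies and 23.4% outside. The Dam-only heights were scaled so that both libraries had the same sum over all listed peaks. With a pseudocount of 1, the median log2 ratio of the heights was then 0.05 for Adam, 0.05 for Adamts and 0.21 for all peaks. Every listed peak was chosen for a higher Dnmt1-Dam height, so this scaling centers the ratios near 0 by construction. A value near 0 therefore does not mean a lack of Dnmt1-Dam excess. Without scaling, the median was 2 for Adam and 2 for Adamts. With heights summing to at least 10, which removes the lowest peaks, the scaled medians were 0.75 for Adam and 0.50 for Adamts. The value for all peaks was not computed with this limit, so these medians do not compare with 0.21. A value of 0.05 is that of a peak of 7 against 1, the smallest pair of heights in the list.

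The 6 peaks found by accession include all of the Adamts-like signal. Adamtsl1, which encodes a matrix glycoprotein without protease activity, had no gene name in the file and held 5 peaks, all inside its 374 kb body on chromosome 4 (85699819 to 86074286). They reached 7 against 1 at 85714601, 8 against 2 at 85717501, 7 against 1 at 85717611, 9 against 1 in a SINE at 85804431 and 8 against 1 at 85885971. Of these, 2 lay 110 bp apart, and its 5 peaks were the most inside the body of any family gene. The sixth peak belonged to Adam6b, a testis gene named 4930523C11Rik in the file. It reached 11 against 1 at -2.90 kb (chromosome 12, 114724881) and was the family's 1 peak in the proximal promoter class, upstream of the CpG-free window printed above.

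Inhibitors, substrates, binding partners and regulators of these proteases had a peak at 25 of 67 list members (37.3%), against 22.7% of all genes. With the matrix metalloproteases added it was 30 of 90 (33.3%). These counts include peaks far outside the body, and genes were not matched on length. The inhibitors had one at 2 of 5 genes, both inside the body: Timp2, which inhibits metalloproteases in the matrix, with 12 against 2, and Reck, a membrane-anchored inhibitor, with 8 against 2. Substrates and ligands of ADAM proteases had one at 10 of 24 (41.7%, 22.1 to 63.4). A peak inside the body was found for 5 of the 24 (20.8%, 7.13 to 42.2), against 11.7% of all genes. The highest were at the adhesion genes Cdh2 (20 against 1, at -662 kb) and Cd44 (20 against 1, in a LINE). Efna5, an ephrin ligand cut by Adam10, reached 18 against 1 inside its body. App, the amyloid precursor, reached 14 against 1 in an LTR element, the growth factor gene Nrg1 13 against 2, and Notch1 11 against 1 in the shore of a CpG island. Areg, an EGF receptor ligand, had 9 against 1 in its proximal promoter, in a SINE. Tgfa reached 9 against 2, and Hbegf and Il6ra 8 against 1 each.

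Substrates of ADAMTS proteases and their fibrillin partners had a peak at 9 of 19 genes (47.4%, 24.4 to 71.1), and 4 of the 19 had one inside the body (21.1%, 6.05 to 45.6). Col2a1, the cartilage collagen gene, reached 17 against 1 at -20.2 kb, and Reln, a secreted neuronal guidance protein gene, 12 against 2 in its distal promoter. Ltbp1, which holds latent TGF-beta in the matrix, had 3 peaks in its body, the highest of 10 against 1. Vcan reached 9 against 2, Vwf and Fbn2 9 against 1, Fn1 8 against 1, and Dcn and Fbn1 7 against 1. Acan, the substrate of Adamts5, had none. Of the regulators of ADAM traffic and activity, 3 of 13 had a peak, all of them tetraspanins that carry Adam10: Tspan14 with 22 against 1 in a SINE of its body, Tspan5 with 19 against 1 and Tspan17 with 8 against 1. The Tspan14 peak was higher than any family peak. Partners of Adam22 and Adam23 had one at 1 of 6 genes, Dlg4 (8 against 1). The matrix metalloproteases, another metalloprotease family, had one at 5 of 23 genes (21.7%, 7.46 to 43.7), led by Mmp16 (14 against 3, at -583 kb) and followed by Mmp2 and Mmp20 (9 against 1) and Mmp8 and Mmp24 (7 against 1).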

How the data were processed

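DamID libraries of 2 embryo pools (Dnmt1-Dam and Dam-only, 1 library each) were compared. Reads were processed with CASAVA and BWA on build mm9, per the submitters' processing notes. No source used here gives the peak caller, its thresholds or the treatment of duplicate reads. The deposited heights were treated as signal, since their scaling is not stated, and the depth is unknown. Location class, repeat, CpG island context and assigned gene are the authors' deposited annotation. Of 4903 accessions, 4883 matched the RefSeq table (GRCm38.p6), which was used for names and gene order. Distances and body lengths come from the deposited mm9 gene limits. Shares have exact Clopper-Pearson and densities exact Poisson 95% intervals (scipy 1.17.1), covering counting error only. For the promoter count of 0, a limit of 3 counts is given beside the exact interval. The calculations were tested on simulated data. The members and gene lists were chosen with earlier results of these data known. Named items were every member gene, all Adamts16 peaks, the 8 highest peaks of each subfamily, all with a promoter or CpG island context, and partner genes with a peak. Protein sequence features were not analysed here.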

Additional observations from a re-analysis of the deposited data

How the results depend on the processing

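Of 50 recalculated values, 42 stayed within 1.5 times the main count, the main interval or the spread between peaks, and 8 moved beyond it. Some of the 42 could not move, so this count overstates stability. Leaving out Adamtsl genes removed nothing, as no Adamtsl peak is among the named members. Keeping 1 peak per 1 kb could merge no Adam or Adamts16 peaks with each other. The shares were not recalculated with the peaks matched by accession. With Dnmt1-Dam heights of 9 or more, member peaks fell in number from 39 to 20 and Adamts16 peaks from 10 to 6; with 15 or more, 1 member remained. By construction these limits leave fewer peaks. Counting peaks inside gene bodies left 12 of 21 family genes, and adding 10 kb on either side left 13, since most member peaks are outside bodies. Without scaling, the median log2 ratio was 2 for Adam and 2 for Adamts, in place of 0.05 for both. With heights summing to at least 10, which removes the lowest peaks, it was 0.75 for Adam and 0.50 for Adamts, the latter within the spread between peaks. No paired analysis was possible because each group is 1 library. Heights are low and the depth is unknown, so differences among them of a few units cannot be resolved.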
